A study of Mus musculus with 15 samples.

Results

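Liver transcripts of the enzymes that carry acetyl-CoA to squalene, the mevalonate pathway, were followed across 15 mice. The set was chosen by name from the pathway, with earlier results of these data known. It holds 8 genes, Acat2, Hmgcs1, Mvk, Pmvk, Mvd, Idi1, Fdps and Fdft1, with every probe set that the array annotation gives to that single symbol. Of these, 7 genes were measured among 18193 genes in all, by 18 probe sets among 45037, and Acat2 was not analysed here. The groups were XKA, male KKAy mice gavaged once daily for 32 days with 1.5 g/kg of Xiao-Ke-An, a herbal medicine for type 2 diabetes; the KKAy model, KKAy mice gavaged with distilled water; and C57BL/6J mice gavaged with distilled water, with 5 mice in each group and gavage begun at 10 weeks of age. KKAy mice carry the lethal yellow allele of agouti and ate a high-fat diet, whereas the C57BL/6J mice ate chow and came from another supplier, so strain, diet and supplier cannot be told apart in any comparison with C57BL/6J. The methods name both a fed state and a fasting state on the day of sacrifice, and the feeding state of the livers is therefore not settled. Each array was hybridised with the liver RNA of 1 mouse, and levels are given as probe-set signals on a linear scale after each array was brought to a median of 1000. A gene is represented by its brightest probe set unless another is named, and levels are compared between mice for the same probe set, never between genes.

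The mevalonate pathway builds the isoprenoid units from which cholesterol, dolichol, ubiquinone and prenyl groups on proteins are made, and liver is a main site of it. Acat2 joins acetyl-CoA units into acetoacetyl-CoA, and Hmgcs1 adds another to give HMG-CoA, the precursor of mevalonate. Mvk and Pmvk phosphorylate mevalonate, Mvd decarboxylates the product to isopentenyl pyrophosphate, Idi1 interconverts this with dimethylallyl pyrophosphate, Fdps joins the units into farnesyl pyrophosphate, and Fdft1, squalene synthase, commits farnesyl pyrophosphate to sterols. Transcription of the pathway is known to follow SREBP-2, a membrane-bound factor that is cut free and enters the nucleus when sterols in the endoplasmic reticulum are low.

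Of the 7 measured genes, 5 were lower in the KKAy model than in C57BL/6J livers, and none was higher. The order by size of change was Idi1, Fdps, Pmvk, Hmgcs1 and Fdft1, with 13.1-fold, 5.07-fold, 4.17-fold, 3.37-fold and 1.92-fold lower signals in the KKAy model. Mvk and Mvd did not pass the test. XKA changed none of the 7 past the test, and Idi1, Fdps, Pmvk and Hmgcs1 were still lower in XKA than in C57BL/6J livers. In the fit over all genes 2.43% of genes were called lower and 10.6% higher in the KKAy model than in C57BL/6J mice, 0.176% differed between XKA and the KKAy model, and 1.95% were lower in XKA than in C57BL/6J mice (limma, adjusted p under 0.05).

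**Figure D1:**
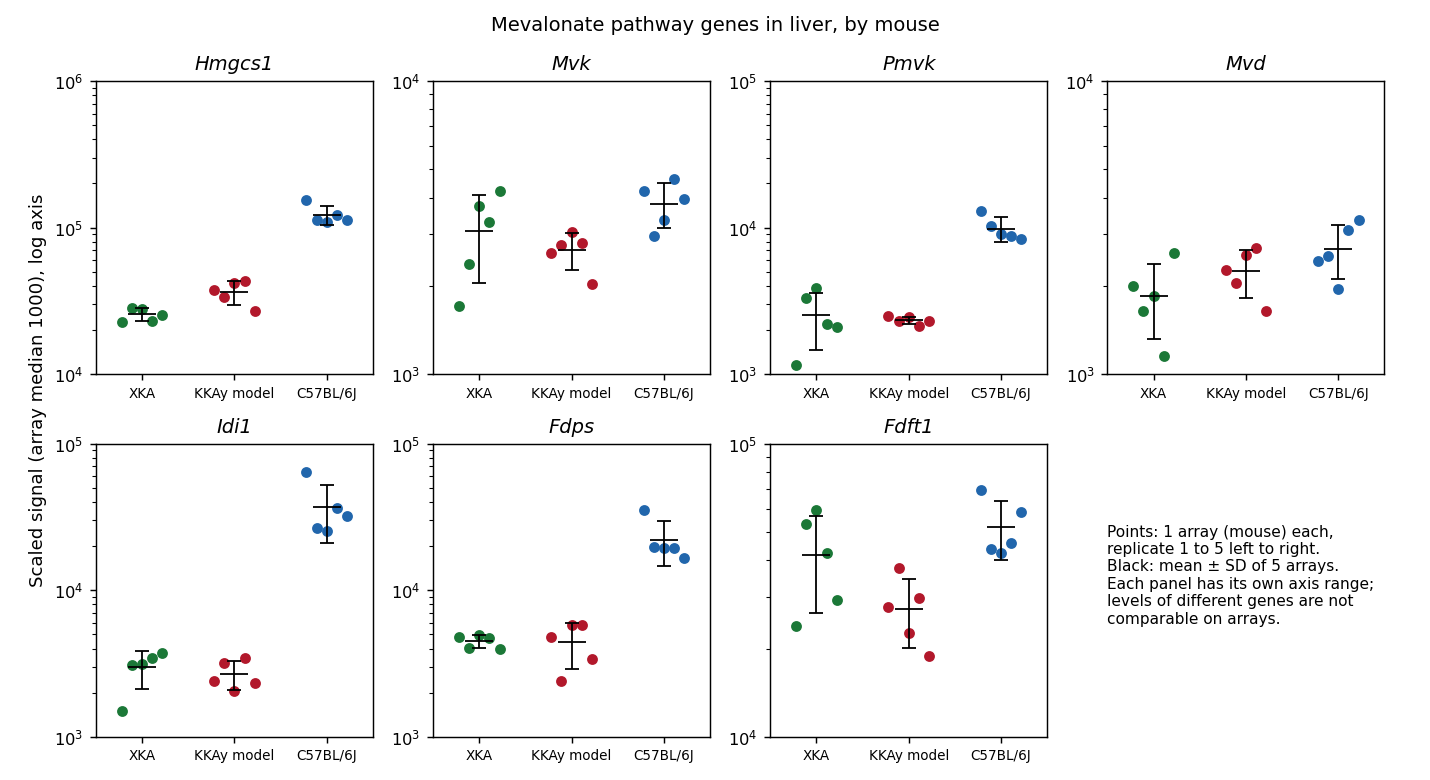
Scaled signal of the 7 measured genes on a log axis, with 1 point per mouse in replicate order and the mean ± SD of 5 mice in black, for XKA, the KKAy model and C57BL/6J. For Hmgcs1, Pmvk, Idi1 and Fdps every KKAy mouse of either group lies below every C57BL/6J mouse, whereas the points of Mvk and Mvd overlap across the 3 groups.

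Idi1 had the largest difference. Its signals were 2412, 3171, 2039, 3457 and 2346 in the KKAy model and 63844, 26401, 25447, 36338 and 31879 in C57BL/6J mice (replicates 1 to 5). No KKAy model mouse came near the lowest C57BL/6J mouse, and C57BL/6J replicate 1 stood highest. The log2 change was -3.72 ± 0.26 (SE, adjusted p = 8.16e-09), and the exact two-sided permutation test gave p = 0.00794, the smallest that 5 mice against 5 allow. A second probe set of Idi1, 1423804_a_at, averaged 1032 ± 294 in the KKAy model and 24826 ± 3050 in C57BL/6J mice (SD, n = 5 each), a log2 change of -4.64 that was larger still. The KKAy model mean of this probe set lies at about the array median of 1000, and how the authors handled background, which bears on folds at such levels, was not stated.

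Fdps, which makes the last precursor shared by sterols and the other isoprenoids, had signals of 4783, 2387, 5832, 5835 and 3390 in the KKAy model and of 35271, 19799, 19537, 19495 and 16561 in C57BL/6J mice. The groups did not overlap, and C57BL/6J replicate 1 again stood above its group. The log2 change was -2.34 ± 0.23 (SE, adjusted p = 7.93e-07). Pmvk, the kinase of the second phosphorylation, was even in the KKAy model, at 2488, 2294, 2435, 2131 and 2302, against 12937, 10248, 8969, 8722 and 8291 in C57BL/6J mice. Its log2 change was -2.06 ± 0.25 (SE, adjusted p = 1.15e-05), with no overlap between the groups.

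Hmgcs1, the first measured step of the pathway, had signals of 37287, 33487, 42100, 43024 and 26755 in the KKAy model and of 153848, 112268, 109487, 122460 and 113226 in C57BL/6J mice. All KKAy model mice were below all C57BL/6J mice, and the log2 change was -1.75 ± 0.14 (SE, adjusted p = 4.08e-08). Its other 4 probe sets changed by -1.38 to -3.31 on the log2 scale and all passed, the last of these being the dim 1441536_at. Fdft1, at the branch toward sterols, had signals of 27817, 37633, 22588, 29823 and 18851 in the KKAy model, against 69581, 43860, 42225, 45788 and 58580 in C57BL/6J mice. This was the smallest of the 5 called changes, at -0.94 ± 0.23 (SE, adjusted p = 0.00949), and the gap between the highest KKAy model mouse and the lowest C57BL/6J mouse was narrow. A second bright Fdft1 probe set, 1448130_at, also changed by -0.94 (adjusted p = 0.00419 over all probe sets).

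Mvk, the first of the pathway's kinases, had signals of 2595, 2747, 3050, 2807 and 2026 in the KKAy model and of 4202, 2953, 3347, 4629 and 3948 in C57BL/6J mice. Only C57BL/6J replicate 2 lay within the range of the KKAy model, and the log2 change was -0.52 (95% interval -1.01 to -0.04, adjusted p = 0.159, exact permutation p = 0.0159). In the values as deposited, without scaling to a common median, the change of Mvk was -0.72 and passed with an adjusted p of 0.0477. Mvd, the decarboxylase, had 2273, 2051, 2541, 2700 and 1644 in the KKAy model, against 2433, 2520, 1958, 3101 and 3349 in C57BL/6J mice, with wide overlap. Its log2 change was -0.25 (95% interval -0.75 to 0.26, adjusted p = 0.583), so a decrease as large as that of Pmvk lies outside the interval of this probe set. The dimmer Mvd probe set 1448663_s_at averaged 375 ± 187 in the KKAy model and 1578 ± 926 in C57BL/6J mice (SD, n = 5 each) and changed by -1.98 (adjusted p = 0.037 over all probe sets), so the 2 probe sets of this gene gave different calls.

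Over all 18 probe sets, 12 were called lower and none higher in the KKAy model than in C57BL/6J mice, where 2.38% of all probe sets were called lower. Of the 12 probe sets with a mean above the array median, 10 were called lower, and the other 2 were those of Mvk and Mvd given above. Of the 6 dim probe sets, 2 were called lower. The dim Fdps probe set 1438150_at averaged 94.4 ± 104 in the KKAy model and 24.1 ± 14.4 in C57BL/6J mice (SD, n = 5 each), with a log2 change of 1.40 that did not pass (adjusted p = 0.341). The dim Fdft1 probe sets 1438918_at and 1438919_x_at had changes of 0.69 and 0.81 and did not pass either. When all probe sets of a gene were averaged on the log2 scale, these dim values moved Fdps to -0.47 (adjusted p = 0.612) and Fdft1 to -0.10 (adjusted p = 0.864), and 3 genes remained called. Between XKA and the KKAy model 0 of the 18 probe sets was called, where 0.0799% of all probe sets were, and between XKA and C57BL/6J mice 8 were called lower, all above the array median, where 1.46% of all probe sets were.

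**Figure D2:**
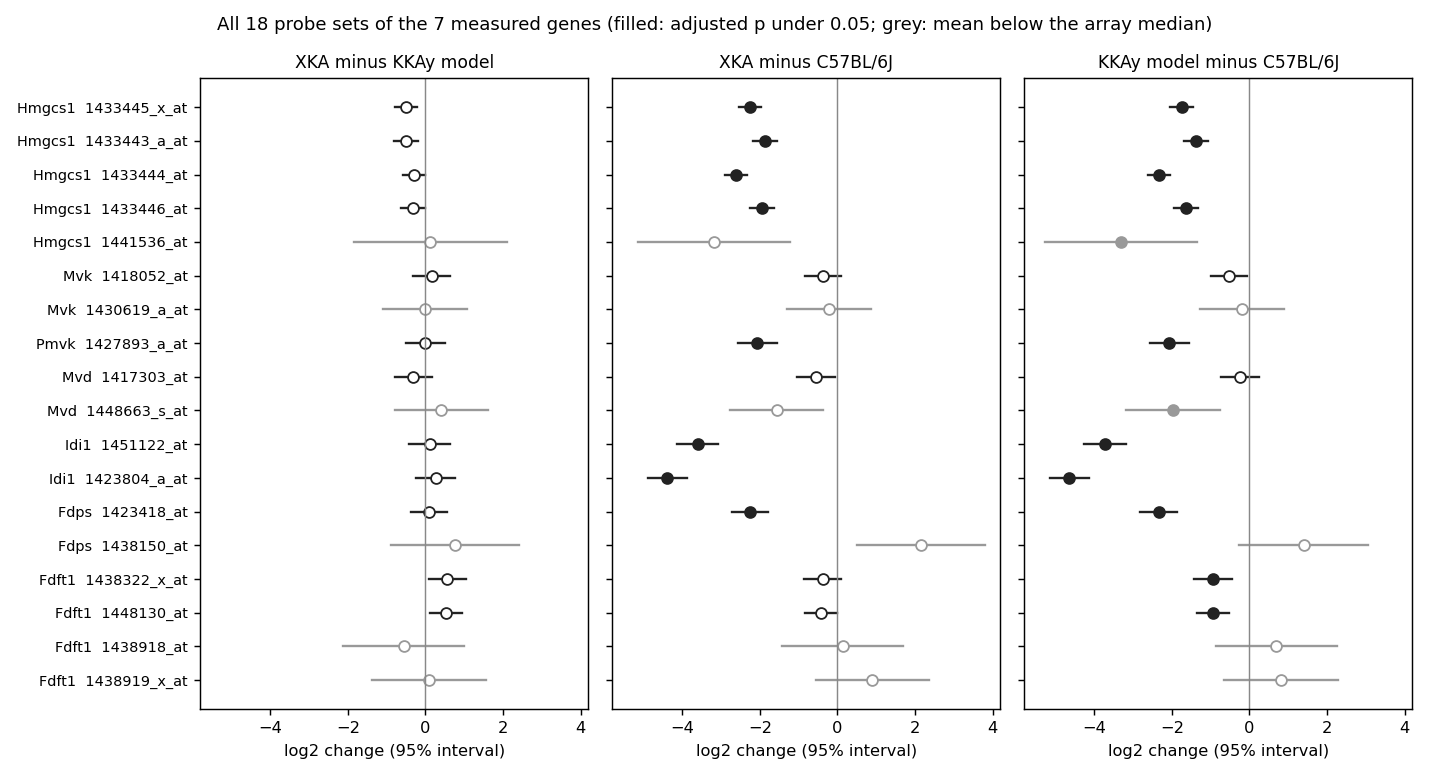
Log2 change with its 95% interval for each of the 18 probe sets, for XKA minus the KKAy model, XKA minus C57BL/6J and the KKAy model minus C57BL/6J. Filled points had an adjusted p under 0.05 and grey points have a mean below the array median; the dim probe sets have the widest intervals, and no point is filled for XKA minus the KKAy model.

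Both KKAy groups are set against the same C57BL/6J mice and share the model mice, so the comparisons are not independent and are given side by side. The signal ranges of the KKAy model and C57BL/6J mice did not overlap in 5 of the 7 genes, all lower in the KKAy model, and 2.38% of all genes were of that kind. The number of genes called in each direction depended on scaling, at 1924 higher and 442 lower after median scaling, 1137 and 1027 in the values as deposited, and 1602 and 1102 after quantile normalization. Over all genes, the log2 change had a median of 0.15, -0.04 and 0.04 under these scalings. The changes of the 5 called members were -0.94 to -3.72 after median scaling, and each was larger in size in the deposited values, at -1.13 to -3.91. C57BL/6J replicate 1 was the highest of its group in 5 of the 7 genes, and without it the 5 genes were still called lower. In a bulk liver sample, fewer cells of a type and less RNA per cell cannot be told apart.

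Against the KKAy model, none of the 7 genes passed the test in XKA, and the intervals leave room for moderate changes. Idi1 had signals of 1496, 3070, 3132, 3462 and 3745 in XKA, and its log2 change against the KKAy model was 0.11 (95% interval -0.43 to 0.65, adjusted p = 0.947). Fdps, at 4819, 4058, 4917, 4698 and 3984 in XKA, changed by 0.09 (95% interval -0.39 to 0.57), and its XKA mice all lay within the range of the KKAy model. Pmvk had 1157, 3330, 3870, 2212 and 2081 in XKA and a log2 change of 0.00 (95% interval -0.52 to 0.52). The XKA mice spread over a wider range of Pmvk signals than the KKAy model mice, with an SD of 1075 in XKA and of 139 in the KKAy model, and this difference in spread was not tested.

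Hmgcs1 and Fdft1 came nearest to a difference between XKA and the KKAy model, in opposite directions. Hmgcs1 had signals of 22697, 28475, 27825, 23204 and 25428 in XKA, and 4 of the 5 KKAy model mice were above all of them. The log2 change was -0.50 (95% interval -0.79 to -0.22), with an adjusted p of 0.176 in limma and an exact permutation p of 0.0238 before any adjustment. After quantile normalization it was -0.45 and passed, with an adjusted p of 0.0249. Without the KKAy model replicate 3 and XKA replicate 1 it was -0.41 (adjusted p = 0.419). Fdft1 had signals of 23953, 53351, 59229, 42351 and 29292 in XKA, with replicates 2, 3 and 4 above all KKAy model mice and replicates 1 and 5 within their range. Its log2 change was 0.56 (95% interval 0.08 to 1.04, adjusted p = 0.482, exact permutation p = 0.111).

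The signals of Mvk were 1710, 2373, 3742, 3316 and 4216 in XKA, a log2 change of 0.16 (95% interval -0.33 to 0.64), with XKA mice both below and above the whole range of the KKAy model. Mvd had 2004, 1636, 1844, 1157 and 2593 in XKA and a change of -0.31 (95% interval -0.81 to 0.20). The count of 0 members called is from limma, which called 32 of all genes in this comparison and found 1567 with an unadjusted p under 0.05. Among the members, Hmgcs1 and Fdft1 had unadjusted p-values of 0.00159 and 0.0238, and the other 5 were at 0.219 or above. Dunnett comparisons against the KKAy model, the test named in the methods, called 0 genes after Benjamini-Hochberg adjustment and 944 without it, Hmgcs1 among them.

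In the comparison of XKA with C57BL/6J mice, 4 genes were called lower, Idi1 by -3.60, Hmgcs1 by -2.25, Fdps by -2.25 and Pmvk by -2.06 on the log2 scale. For each of them the XKA and C57BL/6J mice did not overlap, and the share of all genes of that kind was not counted for this comparison. Called lower in it were 1.95% of all genes. The background of this comparison moved with scaling, with 1006 genes higher and 355 lower after median scaling, 703 and 780 in the deposited values, and 1021 and 805 after quantile normalization. Fdft1 was at -0.38 (95% interval -0.86 to 0.10, adjusted p = 0.413), Mvk at -0.37 (adjusted p = 0.43) and Mvd at -0.56 (adjusted p = 0.2). Fdft1 thus passed against C57BL/6J mice in the KKAy model and not in XKA, while the direct difference between XKA and the KKAy model did not pass.

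The reverse rate, the equation of the methods for how far treatment moved a gene back toward normal, is the mean signal of the KKAy model minus that of XKA, divided by the mean of the KKAy model minus that of C57BL/6J. A value of 1 is a full return and 0 is none. It was 0.579 for Fdft1, 0.0267 for Pmvk, 0.00868 for Idi1, 0.00284 for Fdps and -0.128 for Hmgcs1 among the 5 called genes. With each mouse left out in turn, Fdft1 ranged from 0.401 to 0.759 and Hmgcs1 from -0.161 to -0.107, and Idi1 stayed between 0.00308 and 0.0196. Pmvk reached -0.018 without XKA replicate 3, and Fdps -0.027 without KKAy model replicate 2. With the mean of all probe sets of a gene in place of the brightest, the rate was 1.13 for Fdps, 0.952 for Fdft1 and 0.047 for Mvd. In that setting none of these genes passed between the KKAy model and C57BL/6J, so the values near 1 are not read as a full return. The Fdps mean takes in the dim 1438150_at, at 24.1 in C57BL/6J mice, 94.4 in the KKAy model and 136 in XKA. By the brightest probe set, the rate was 0.364 for Mvk and -0.917 for Mvd, whose denominators did not pass the test. Leaving out 1 mouse moved these rates over 0.119 to 0.655 and -1.93 to -0.514, in that order. The numerator and denominator share the KKAy model mice, and no test was made of this rate.

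Promoter sequences are shown for 3 genes that were lower in the KKAy model, Hmgcs1, Pmvk and Idi1, and for Mvk, which did not pass, so that the start regions of genes that passed the test and of one that did not can be read beside each other. Sequences are from RefSeq on GRCm38.p6 and run from 250 bases before to 50 bases after the start. RefSeq promoters were matched for 6 of the 8 genes, and not for Fdps and Fdft1. Capitals mark matches on either strand to TCACNCCAC, a sterol regulatory element of the kind that SREBPs bind, and to CCAAT, the box that NF-Y binds, which reads ATTGG when it lies on the other strand. The Hmgcs1 start is at chr13:119690101-119690400, plus strand. That of Pmvk, the first of its 2 listed starts, is at chr3:89454291-89454590, plus strand. Idi1 is at chr13:8885356-8885655 and Mvk at chr5:114444019-114444318, both on the plus strand.
Hmgcs1: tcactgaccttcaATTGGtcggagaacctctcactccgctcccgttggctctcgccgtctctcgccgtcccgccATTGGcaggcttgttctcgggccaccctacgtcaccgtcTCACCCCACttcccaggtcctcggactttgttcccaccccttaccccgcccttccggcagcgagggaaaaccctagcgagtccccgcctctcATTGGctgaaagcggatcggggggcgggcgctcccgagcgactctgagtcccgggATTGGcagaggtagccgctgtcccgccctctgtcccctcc
Pmvk: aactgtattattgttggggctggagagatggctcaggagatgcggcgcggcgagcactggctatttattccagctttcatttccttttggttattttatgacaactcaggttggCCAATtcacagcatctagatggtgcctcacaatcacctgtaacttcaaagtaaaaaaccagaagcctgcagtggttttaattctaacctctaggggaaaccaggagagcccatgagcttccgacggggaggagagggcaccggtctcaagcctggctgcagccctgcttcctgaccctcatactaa
Idi1: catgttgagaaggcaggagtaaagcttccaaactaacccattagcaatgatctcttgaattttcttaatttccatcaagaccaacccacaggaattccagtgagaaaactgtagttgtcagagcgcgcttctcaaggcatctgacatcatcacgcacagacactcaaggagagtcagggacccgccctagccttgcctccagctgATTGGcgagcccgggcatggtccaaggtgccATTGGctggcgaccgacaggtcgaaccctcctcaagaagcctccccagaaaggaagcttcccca
Mvk: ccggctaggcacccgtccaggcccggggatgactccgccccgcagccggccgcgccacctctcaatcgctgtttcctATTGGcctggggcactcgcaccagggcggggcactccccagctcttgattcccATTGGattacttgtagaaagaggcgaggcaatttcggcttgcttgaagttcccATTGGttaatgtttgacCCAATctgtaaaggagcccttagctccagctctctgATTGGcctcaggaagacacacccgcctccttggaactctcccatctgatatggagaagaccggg

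The Hmgcs1 sequence holds TCACNCCAC once, at positions -137 to -129 from the start, and it was the only match among the 6 genes with a promoter, where 1.24% of 32851 promoters of the same length hold it. The shorter TCACNCCA, which lies inside it, is held by 4.36% of promoters and was found in no other member. CCAAT is held by 37.4% of promoters and occurs 4 times in Hmgcs1, 5 times in Mvk, 2 times each in Idi1 and Mvd and 1 time in the first Pmvk promoter, and not in Acat2. The Sp1 box GGGCGG, held by 35.7% of promoters, occurs 3 times in Hmgcs1, 2 times in Mvk and 1 time each in Acat2, Mvd and Idi1. These are letter matches within a window and say nothing of what is bound there.

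Adjacent genes on the chromosome were read as values of position. Of 32 measured neighbours of the 8 genes, the nearest 2 on each side, 2 were lower and 4 higher in the KKAy model than in C57BL/6J mice, and 0 differed between XKA and the KKAy model. Over all genes, 2.43% were called lower and 10.6% higher in the first of these comparisons, and 0.176% were called in the second. Rusc1, 224 bases from Fdps, had a log2 change of -0.20 (adjusted p = 0.566) beside the -2.34 of Fdps. Mmab, which acts in cobalamin metabolism and lies 190 bases from Mvk, was at -0.71 (adjusted p = 0.142), and Ctsb, which overlaps Fdft1 by 774 bases, at 0.46 (adjusted p = 0.0964). The lower neighbours were Pygo2 near Pmvk at -0.95 and Snai3 near Mvd at -1.95, and the higher ones were Wtap at 1.06 and Sod2 at 0.63 near Acat2, Cyba at 0.75 near Mvd and Pklr at 0.95 near Fdps.

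The enzymes that turn squalene into cholesterol were lower as well. Of 12 measured genes of this list, 9 were lower and 0 higher in the KKAy model than in C57BL/6J mice, with a median log2 change of -0.90 beside -1.75 for the mevalonate genes and 0.15 for all genes. Over all genes 2.43% were called lower after median scaling. All 12 genes of the list were called lower under both other scalings, the deposited values and quantile normalization. Sqle, squalene epoxidase, averaged 785 ± 275 in the KKAy model and 10710 ± 4202 in C57BL/6J mice (SD, n = 5 each), a change of -3.78 on the log2 scale with a KKAy model mean below the array median. Cyp51, the lanosterol demethylase, changed by -3.03, Msmo1, the sterol methyl oxidase, by -2.80, and Tm7sf2, a sterol reductase, by -1.96. Lss, lanosterol synthase, did not pass at -0.37 (adjusted p = 0.228). None of the 12 was called between XKA and the KKAy model, with Cyp51 nearest at 0.48 (adjusted p = 0.442).

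Which genes were called among those that draw on the pathway without making sterols depended on scaling. Of 11 measured genes of the isoprenoid branches, 3 rose and 0 fell in the KKAy model against C57BL/6J mice, with a median log2 change of 0.21, while the values as deposited gave 1 higher and 1 lower with a median of 0.02 and quantile normalization gave 2 and 1 with a median of 0.08. Dhdds of dolichol synthesis, at 0.09 and not called, was the one gene of the list whose sign turned, to -0.11 and -0.05. The 3 genes called higher after median scaling were Coq2 of ubiquinone synthesis at 0.59, Nus1 of dolichol synthesis at 0.43 and Fnta at 0.40. Under that scaling 10.6% of all genes were called higher and 2.43% lower. Fnta is a subunit of farnesyl and geranylgeranyl transferases. Only Coq2 was called under all 3 scalings, at 0.40 and 0.39 in the deposited and quantile-normalized values, and Rabggtb, a subunit of the transferase that prenylates Rab proteins, was called lower under both of these, each at -0.45. Ggps1, which uses the product of Fdps, was at -0.16 (adjusted p = 0.687). Of 3 genes that supply cytosolic acetyl-CoA, Acss2, acetyl-CoA synthetase, was lower at -0.94 (adjusted p = 0.00177), while Acly had -0.08 and did not pass. In mitochondria, Bdh1 of ketone metabolism was higher at 0.50 (adjusted p = 0.0334) and was not called in the values as deposited, and Acat1, the mitochondrial counterpart of Acat2, had 0.37 (adjusted p = 0.134).

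**Figure D3:**
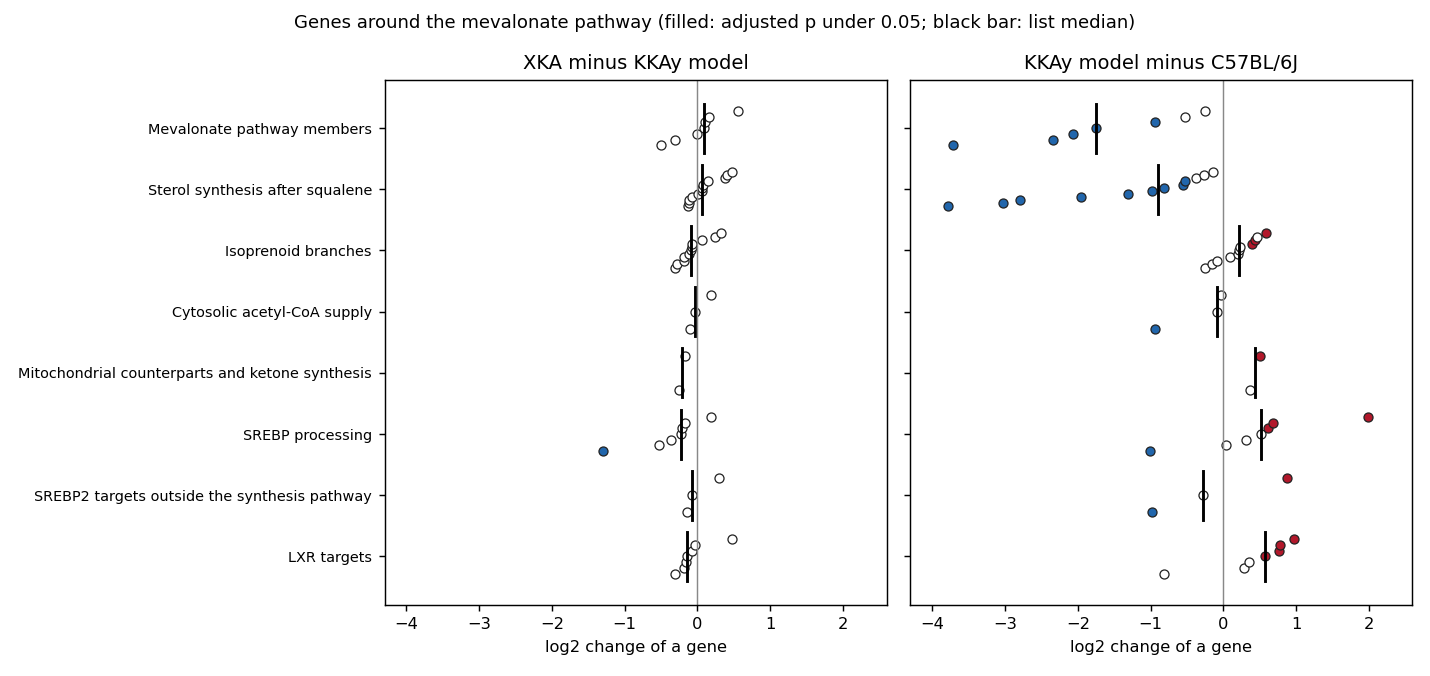
Log2 change of each measured gene of the mevalonate pathway and of 7 lists around it, for XKA minus the KKAy model and the KKAy model minus C57BL/6J. Filled points had an adjusted p under 0.05 (blue lower, red higher) and black bars are list medians; for the KKAy model minus C57BL/6J the mevalonate median is -1.75 and the median after squalene is -0.90, and for XKA minus the KKAy model only Insig2 is filled.

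Among 7 genes that control SREBP cleavage, 3 rose and 1 fell in the KKAy model against C57BL/6J mice, under all 3 scalings. After median scaling 10.6% of all genes were called higher and 2.43% lower in this comparison. Srebf1, whose SREBP-1c product drives fatty acid synthesis, was higher at a log2 change of 1.99 (adjusted p = 8.96e-06), and the proteases that cut SREBPs, Mbtps1 and Mbtps2, at 0.68 and 0.61. Srebf2, which encodes SREBP-2, had a log2 change of 0.04 (adjusted p = 0.949), with 3702 ± 471 in the KKAy model and 3619 ± 532 in C57BL/6J mice (SD, n = 5 each). Insig1, which retains SREBPs in the endoplasmic reticulum and is itself a known SREBP target, was lower at -1.01 (adjusted p = 0.00278). Insig2, a second retention protein, was the only gene of these lists that differed between XKA and the KKAy model. It averaged 93744 ± 15601 in XKA and 228410 ± 23074 in the KKAy model (SD, n = 5 each), a log2 change of -1.30 (adjusted p = 0.00482).

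Of 3 measured genes on a list drawn up as SREBP-2 targets outside the synthesis pathway, 1 was lower and 1 higher. Stard4, a sterol carrier known as an SREBP-2 target, was lower in the KKAy model than in C57BL/6J mice at -0.98 (adjusted p = 0.00394). Rnf145, a sterol-responsive ubiquitin ligase, was higher at 0.87 (adjusted p = 8.65e-04). Whether Rnf145 follows SREBP-2 was not tested, and its rise is not read as that of an SREBP-2 target. Tmem97 had -0.28 and did not pass, but was called lower at -0.48 under both other scalings (adjusted p = 0.0423 and 0.0237). Of 7 known targets of LXR, the receptor for oxysterols, 4 were higher and 0 lower, with a median log2 change of 0.58 after median scaling and of 0.39 in the deposited values, where the count was also 4 and 0. They were the sterol transporters Abcg5 at 0.97, Abca1 at 0.78, Abcg1 at 0.77 and Abcg8 at 0.58. Beside these counts, 10.6% of all genes were called higher and 2.43% lower after median scaling. Cyp7a1, the rate-limiting enzyme of bile acid synthesis, had -0.81 and did not pass (adjusted p = 0.186).

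The liver label was read against cell type markers. For comparison, 10.6% of all genes were called higher and 2.43% lower in the KKAy model than in C57BL/6J mice after median scaling. Hepatocyte markers had summed signals of 2963542 to 4678692 in the KKAy model and 2721703 to 4338181 in C57BL/6J mice, and 0 of 7 were called in either direction, with 1 lower in the deposited values (Ahsg) and 2 lower after quantile normalization (Ahsg and Apoa1). Of 9 macrophage markers 1 was called, Marco, at -3.10 in the KKAy model against C57BL/6J mice, and the other 8 had positive values that did not pass (list median 0.27, Cd5l 0.74, Clec4f 0.60), of which Adgre1 and Csf1r were below 0 under both other scalings, with a summed signal of 168368 to 428062 in the KKAy model and 147159 to 264220 in C57BL/6J mice. Of 6 adipocyte markers 2 were higher, Cidec at 2.72 and Fabp4 at 0.74 (list median 0.32). Fabp4 lost its call under both other scalings (adjusted p = 0.119 and 0.0815). The others did not pass, with Retn at -0.59, Adipoq at -0.35, Lep at 0.30 and Lipe at 0.34. The summed signal of the list was 12515 to 27906 in the KKAy model and 8684 to 13062 in C57BL/6J mice. It holds Fabp4 means of 12727 in the KKAy model and 7405 in C57BL/6J mice. Adipoq, a defining adipocyte transcript, was below the array median in all mice at 57.6 to 755. Of 6 neutrophil markers 1 was higher, S100a8 at 2.16, and the other 5 were at -0.06 to 0.44. The summed signal of the list, 13094 to 30270 in the KKAy model and 7087 to 11011 in C57BL/6J mice, holds S100a8 means of 12129 in the KKAy model and 2661 in C57BL/6J mice. Of 7 stellate and fibroblast markers 1 was higher, Col3a1 at 0.90 (list median -0.03), and it lost its call under both other scalings. Of 6 endothelial markers 2 were higher, Stab2 at 0.84 and Clec4g at 0.66 (list median 0.02). Stab2 was also called under both other scalings, Clec4g was not, and Cdh5, at -0.27 here, was called lower in the deposited values (adjusted p = 0.0291). Of the lymphocyte and cholangiocyte markers, 0 of 7 and 0 of 4 were called. None of the markers was called between XKA and the KKAy model, where 0.176% of all genes were. The part of other cell types in the lower mevalonate signals was not tested. The 3' to 5' ratio of Actb, a measure of RNA integrity, had log2 medians of 1.42 in XKA, 1.45 in the KKAy model and 1.37 in C57BL/6J mice. Its highest values were 1.49, 1.46 and 1.78 in the same order. The ratio of Gapdh had medians of -0.19, -0.20 and -0.09 and highest values of -0.05, -0.08 and 0.24. The part of RNA integrity in the changes was not tested.

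Within the 10 KKAy mice, where both groups are low, pairs of members were compared over single mice. Over 21 pairs of genes Pearson's r ran from -0.39 to 0.73 with a median of 0.15, and 14 pairs were above 0. No pair passed Benjamini-Hochberg adjustment over the 21 pairs by r or by Spearman's rho. The highest was Mvk with Idi1, r = 0.73 (permutation p = 0.0151, adjusted p = 0.294) and rho = 0.71 (permutation p = 0.0272, adjusted p = 0.571), and without the 2 mice farthest from the median of Mvk r was 0.35. Once each group's mean was subtracted, a step added after the values were seen, r ran from -0.23 to 0.76 with a median of 0.39, and 15 of the 21 pairs were above 0. Pmvk with Fdft1 was then highest (r = 0.76, permutation p = 0.0271, adjusted p = 0.375), and 0 pairs passed the adjustment, with 2 at an unadjusted permutation p under 0.05. With 5 mice in each group, no r is given within a group. XKA replicate 1 was the lowest XKA mouse in 5 of the 7 genes, Hmgcs1, Mvk, Pmvk, Idi1 and Fdft1, and its array had the lowest quality weight of the 15, at 0.61. KKAy model replicate 5 was lowest in 4 genes, Hmgcs1, Mvk, Mvd and Fdft1, with an array weight of 0.661, and was below the mean of the KKAy mice in all 7. XKA replicate 5 had a similar array weight, 0.665. It was the highest XKA mouse in 3 genes, Mvk, Mvd and Idi1, and the lowest in Fdps. Low array weight thus went with low values in some of these mice and not in others. Whether array quality has a part in the low values of XKA replicate 1 and KKAy model replicate 5 was not tested.

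**Figure D4:**
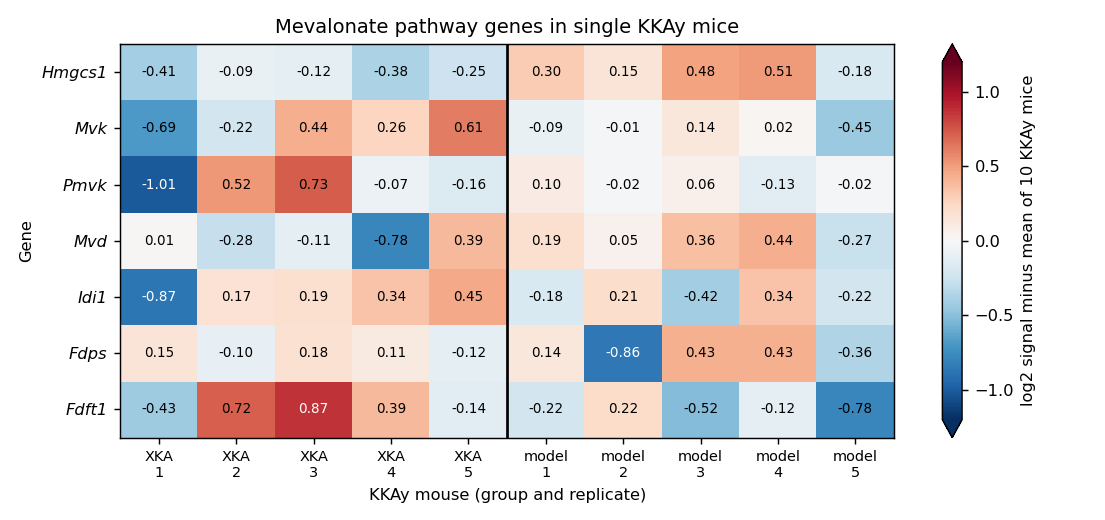
Log2 signal of each measured gene in each KKAy mouse minus the mean of the 10 KKAy mice, with XKA mice on the left and KKAy model mice on the right. XKA replicate 1 is low in Pmvk (-1.01), Idi1 (-0.87) and Mvk (-0.69), and KKAy model replicate 5 is below 0 in all 7 genes.

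The genes outside the pathway whose signals in the 10 KKAy mice were most like those of the members, by mean Pearson's r to the 7, reached only 0.49 to 0.52. They were Haus4, Sft2d1, Cfap20, 1110020A21Rik, Slc19a1, Tmcc3, Tram2, Zkscan14, Nucks1 and Tm4sf1, and none is on the pathway lists. Haus4 and Tram2 were higher in the KKAy model than in C57BL/6J mice, at 0.63 and 0.85 (adjusted p = 0.0407 and 0.00118), the direction opposite to that of the members, and none of the 10 differed between XKA and the KKAy model.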

How the data were processed

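Liver RNA of 15 mice was hybridised to Affymetrix mouse arrays, 1 mouse per array and 5 per group. Intensity values per probe set, as deposited by the authors, are linear. ArrayTrack and median scaling to 1000 are named in the methods, while the deposited array medians were 127 to 182. Probe summarisation and background handling are not given in the sources used. Each array was therefore scaled to a median of 1000, taken to log2 and fitted with limma 3.58.1 in R 4.3.3 (intensity trend, all 15 arrays, two-sided, Benjamini-Hochberg adjusted p under 0.05). Symbols were updated through Entrez identifiers to RefSeq. Of 45101 probe sets, 64 were controls, 34945 had 1 symbol, 932 several and 9160 none, and each of 18193 genes was represented by its brightest single-symbol probe set. All 45037 other probe sets were also fitted. Precision is limited by 5 arrays per group, and the median SE of a log2 change was 0.28 over genes. Single genes were also compared by exact two-sided permutation, and pairs of genes by permutation with 100000 resamples (Python 3.11.15, scipy 1.17.1). Dunnett comparisons used mvtnorm 1.3.3. Scripts were tested on simulated data. Named were the members, up to 6 called genes per list and single genes needed to read a member, neighbours, and the 10 genes most like the members. Members and lists were chosen with earlier results of these data known. Alternatives covered scaling, probe sets of a gene, dim genes, an offset of 100, the prior, the test, a replicate block, array weights and each array left out. Leaving out both KKAy model replicate 3 and XKA replicate 1, and list counts under other scalings, were added after values were seen. Mice of the same replicate number showed no shared deviation, and the main fit did not pair them.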

Additional observations from a re-analysis of the deposited data

Results flagged for a closer look

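In 2 of the 21 sets of 5 mice, 7 genes in 3 groups, the extreme mouse stood apart from the other 4 on the log2 scale by more than Dixon's critical value of 0.71 of the group's range, and chance alone sets apart about 1 in 20. Idi1 in XKA replicate 1 was at 1496, with a gap of 0.78 of the log2 range to the next XKA mouse and of 0.70 on the linear scale, where it is not past the critical value, and the log2 change of Idi1 between XKA and the KKAy model was between 0.01 and 0.34 when each mouse was left out in turn, with none past the test. Fdps in C57BL/6J replicate 1 was at 35271, with a gap of 0.76 of the log2 range and 0.83 of the linear range, and the change of Fdps between the KKAy model and C57BL/6J stayed between -2.46 and -2.14 with each mouse left out in turn, all past the test. On the linear scale, added after the values were seen, Idi1 in C57BL/6J replicate 1, at 63844, also passed, with a gap of 0.72 against 0.61 on the log2 scale.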

How the results depend on the processing

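The 5 genes called lower in the KKAy model than in C57BL/6J mice were called in all 15 runs that left out 1 mouse. Fdft1 was lost under the adjusted Dunnett comparisons (adjusted p = 0.0844), and Fdft1 and Fdps were lost with the mean of all probe sets of a gene, where 3 members were called. Over all genes the count between the KKAy model and C57BL/6J was 2366, against 1379 by adjusted and 3563 by unadjusted Dunnett comparisons. Between XKA and C57BL/6J it was 1361, against 828 with the mean of probe sets and 892 with no intensity trend. With the mean of probe sets Fdps was at -0.05 in XKA against C57BL/6J and was lost. The count between XKA and the KKAy model, 32, was the least steady, at 63 in the deposited values, 113 after quantile normalization, 52 with array weights, 6 with the mean of probe sets, 4 with no intensity trend, and 0 by adjusted and 944 by unadjusted Dunnett comparisons. With 1 mouse left out it was 11 (without XKA replicate 3) to 54 (without XKA replicate 1), and it was 14, 16 and 12 without KKAy model replicates 2, 3 and 4 and 17 without XKA replicate 4 or 5. The members called in it numbered 1, Hmgcs1, after quantile normalization and by unadjusted Dunnett comparisons, and 0 otherwise. Some directions turned. For XKA against the KKAy model, Pmvk ranged from -0.18 to 0.25 and Fdps from -0.11 to 0.21 with 1 mouse left out (Pmvk was at 0.27 without both KKAy model replicate 3 and XKA replicate 1), Mvd was at 0.05 with the mean of probe sets and 0.41 for 1448663_s_at, Hmgcs1 at 0.13 for 1441536_at, Mvk at -0.01 for 1430619_a_at and Fdft1 at -0.56 for 1438918_at. For the KKAy model against C57BL/6J, Fdps was at 1.40 for 1438150_at, and Fdft1 at 0.69 for 1438918_at and 0.81 for 1438919_x_at. For XKA against C57BL/6J, Fdps was at 2.16 for 1438150_at, and Fdft1 at 0.06 with the mean of probe sets, 0.14 for 1438918_at and 0.89 for 1438919_x_at. The reverse rate was above 0 in 5 members, in 3 without XKA replicate 3, and in 2 when every probe set of a gene had to be above 0. In the lists, 2 genes of acetyl-CoA supply were called between the KKAy model and C57BL/6J after quantile normalization and 0 mitochondrial genes in the deposited values. Mice of the same replicate number did not deviate together (r from -0.04 to 0.09 over 15 pairs of mice). Low r values cannot settle whether the numbers stand for a shared order or day. With the replicate number as a block, 2103, 22 and 1195 genes were called between the KKAy model and C57BL/6J, XKA and the KKAy model, and XKA and C57BL/6J, and no member changed its call. The causes were not tested.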
